A study of Homo sapiens with 27 samples.

Results

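Transcription factors that mark the eye field and the neural retina were described across bulk RNA-seq libraries of stem cells on their way to photoreceptor progenitors. The 6 genes were PAX6, RAX, SIX3, SIX6, LHX2, and NR2E1, taken from the deposited tables by matching Ensembl identifiers to these symbols. All 6 were found among the 44852 genes of the tables. The libraries came from the human embryonic stem cell line H1, differentiated on laminin matrices named here LN523, LN323, and LN521 and collected at days 2, 22, and 32, with 3 libraries per matrix and day and 27 in all. Laminins are heterotrimeric proteins of the basement membrane, and the comparison of matrices addresses which isoforms favour the retinal lineage.

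The day 2 groups were undifferentiated cells in stem cell medium. All groups at days 22 and 32 had received CKI-7, a casein kinase inhibitor, and SB431542, an inhibitor of TGF-beta family receptors, from day 2, and then a photoreceptor medium with BDNF, CNTF, retinoic acid, and DAPT, a Notch pathway inhibitor, plus B27 and N2 supplements. The sample labels give the coatings as LN523 with LN323, LN521 with LN323, and LN323 alone, whereas the methods of the study give LN523 with LN521, LN323 with LN521, and LN521 alone, so each matrix is called by its first laminin. In the library titles these days appear as 0, 20, and 30. All libraries came from 1 cell line, and the replicate number equals the sequencing lane in the titles. Nothing in the labels ties the 3 replicates to separate cultures, so p-values measure the spread between these libraries, which may be technical. Total counts ranged from 25620624 to 47340990 per library (median 39862487). Of the non-zero counts 68.8% were even, so the number of separate fragments behind a count may be lower than the count.

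The eye field is the patch of the anterior neural plate that gives rise to both eyes, and it is defined by the joint activity of a small set of transcription factors. After the optic vesicle has formed, the same factors are kept on in dividing progenitors of the neural retina, while several of them are turned off in the pigment epithelium or in most differentiating neurons. In cultures of pluripotent cells, their appearance is widely used as a sign that cells have left the stem cell state for a retinal fate.

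The marker genes of the cells that could be present were summed as TPM, a level scaled by gene length and library total. The 7 pluripotency markers summed to between 9395 and 10936 TPM at day 2, between 84.3 and 628 TPM at day 22, and between 40.4 and 122 TPM at day 32. The label of the later groups is photoreceptor progenitors. Of a list of 10 photoreceptor markers, 9 were matched, and they summed to between 6.43 and 19.3 TPM at day 22 and between 18.3 and 160 TPM at day 32.

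PAX6 (ENSG00000007372) lies on the minus strand of chromosome 11 at 31784779 to 31817961 in GRCh38, by GENCODE 44. It encodes a paired-box and homeodomain factor required for eye formation across animals. RAX (ENSG00000134438; chromosome 18, 59267035 to 59274086, minus strand) encodes a homeodomain factor needed for the optic vesicle to form. SIX3 (ENSG00000138083; chromosome 2, 44941702 to 44946071, plus strand) and SIX6 (ENSG00000184302; chromosome 14, 60509146 to 60512850, plus strand) encode related homeodomain factors of the forebrain and eye, of which SIX6 acts mainly in retinal progenitors and the ventral forebrain. LHX2 (ENSG00000106689; chromosome 9, 124001670 to 124033301, plus strand) encodes a LIM homeodomain factor that carries the optic vesicle forward to the optic cup. NR2E1 (ENSG00000112333; chromosome 6, 108166022 to 108188805, plus strand), also called TLX, encodes an orphan nuclear receptor of neural stem cells and retinal progenitors.

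Exons on the opposite strand could affect the counts of 3 of the 6 genes if strand was not used in counting. The strand setting and the handling of reads shared by 2 genes are not given in the sources used here. Of the exonic bases of PAX6, 25.4% are shared with ELP4, a subunit gene of the Elongator complex, which was at 30.4 to 61.2 TPM already at day 2, when PAX6 was at 0.269 to 0.525 TPM. SIX3 shares 7.63% of its exonic bases with the antisense RNA SIX3-AS1, and LHX2 shares 4.21% with a long non-coding RNA. SIX3-AS1 itself was at 0 to 0.165 TPM at day 2 and at 18.2 to 221 TPM at days 22 and 32.

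Promoter windows of 300 bases, from 250 bases before to 50 bases after the start of transcription, were available from RefSeq (GRCh38.p14) for 5 of the 6 genes, PAX6, RAX, SIX6, LHX2, and NR2E1. The table holds 1 window each for SIX6, LHX2, and RAX and 2 for NR2E1, of which the first is shown. Windows of SIX6 with LHX2 and of RAX with NR2E1 are shown because these are the pairs whose levels ran closest together over the later libraries, as described further on. Capitals mark the CCAAT box, found on either strand (CCAAT or ATTGG). The windows lie at chr14:60508896-60509195 (plus strand) for SIX6, chr9:124011518-124011817 (plus strand) for LHX2, chr18:59273405-59273704 (minus strand) for RAX, and chr6:108165772-108166071 (plus strand) for NR2E1.
SIX6: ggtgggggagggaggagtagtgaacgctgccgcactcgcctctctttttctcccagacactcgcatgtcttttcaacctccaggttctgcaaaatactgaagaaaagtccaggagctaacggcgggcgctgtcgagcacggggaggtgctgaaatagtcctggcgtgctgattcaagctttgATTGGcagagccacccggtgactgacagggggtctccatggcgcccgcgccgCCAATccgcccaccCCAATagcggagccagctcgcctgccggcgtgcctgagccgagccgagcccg
LHX2: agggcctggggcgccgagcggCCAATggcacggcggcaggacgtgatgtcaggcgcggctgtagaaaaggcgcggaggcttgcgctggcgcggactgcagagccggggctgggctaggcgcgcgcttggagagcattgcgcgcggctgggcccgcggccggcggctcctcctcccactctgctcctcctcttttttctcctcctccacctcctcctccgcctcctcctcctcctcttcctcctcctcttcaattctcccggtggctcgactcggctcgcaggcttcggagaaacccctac
RAX: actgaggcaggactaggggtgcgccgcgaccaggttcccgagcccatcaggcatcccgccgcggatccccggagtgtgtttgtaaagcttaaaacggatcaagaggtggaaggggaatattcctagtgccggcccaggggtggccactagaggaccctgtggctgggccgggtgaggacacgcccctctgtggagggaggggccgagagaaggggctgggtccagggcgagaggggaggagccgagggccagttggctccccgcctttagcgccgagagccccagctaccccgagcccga
NR2E1: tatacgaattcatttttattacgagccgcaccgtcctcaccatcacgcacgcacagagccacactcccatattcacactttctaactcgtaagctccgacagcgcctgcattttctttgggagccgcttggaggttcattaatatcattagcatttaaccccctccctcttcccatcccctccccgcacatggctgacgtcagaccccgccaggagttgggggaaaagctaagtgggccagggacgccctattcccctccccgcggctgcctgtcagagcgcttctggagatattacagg
The SIX6 window held 3 CCAAT boxes and the LHX2 window held 1, whereas the RAX and NR2E1 windows shown held 0. Of all 35116 promoter windows in the table, 34.6% held the motif. The homeodomain core TAATTA was in 0 of the 4 windows against 4.84% of all windows, the bicoid-type core TAATCC in 0 against 6.36%, and the core TGATAC in 0 against 4.40%, each searched on both strands. A match here is one of letters in a short window and no measure of binding. The LHX2 and RAX windows surround RefSeq starts inside the GENCODE gene bounds. The GC content was 62.3% for SIX6, 69% for LHX2, 67% for RAX, and 54.7% for NR2E1, beside a median of 58.7% over all windows.

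All 6 genes were close to silent in the day 2 cells and rose by at least 163-fold by day 22 in pooled CPM on every matrix. Pooled CPM is a group's summed counts scaled by its summed library totals after TMM normalization. PAX6 had 44 to 64 counts per library at day 2 against 16096 to 43128 at days 22 and 32. RAX had 24 to 66 counts at day 2, LHX2 8 to 36, SIX6 2 to 30, and SIX3 0 to 26, whereas NR2E1 had 0 to 4, with 5 of the 9 day 2 libraries at 0. Day 2 and day 22 libraries did not overlap for any member on any matrix. Over all genes, 15.3% on LN523, 16% on LN323, and 15.8% on LN521 lay apart in this direction. By edgeR's quasi-likelihood test over all 27 libraries, with lane as a block, all 6 members were called higher at day 22 on each matrix, with Benjamini-Hochberg adjusted p-values between 5.9e-27 and 3.99e-11. Over all 44852 genes tested, 11.5% were called higher on LN523, 11.8% on LN323, and 10.8% on LN521.

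The sizes of the rises lay within 0.4 of each other on the log2 scale between matrices for PAX6, RAX, SIX6, and LHX2. PAX6 rose by 8.48 ± 0.33 (SE) on the log2 scale on LN523, 8.75 ± 0.33 on LN323, and 8.81 ± 0.33 on LN521. The rise of SIX6 was 9.34 ± 0.42, 9.54 ± 0.42, and 9.50 ± 0.43 on the same matrices, or 673-fold, 672-fold, and 663-fold in pooled CPM. LHX2 rose by 8.46 ± 0.41, 8.54 ± 0.40, and 8.85 ± 0.41, and RAX by 7.46 ± 0.50, 7.40 ± 0.50, and 7.37 ± 0.50. SIX3 spread most among the genes with counts in every group, with 8.28 ± 0.60 on LN523, 9.29 ± 0.64 on LN323, and 7.37 ± 0.55 on LN521, but its day 2 sums were 14, 8, and 38 counts over the 3 libraries of a matrix. NR2E1 had 4 counts in sum on LN523 and 6 on LN323 at day 2, and its pooled CPM rose 313-fold and 166-fold. On LN521 it had 0 counts in sum, so that against a floor of 3 counts over the group it was at least 319-fold higher at day 22. A difference in the rise between matrices was not tested. In bulk RNA, fewer cells of a type and less RNA per cell cannot be told apart.

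**Figure D1:**
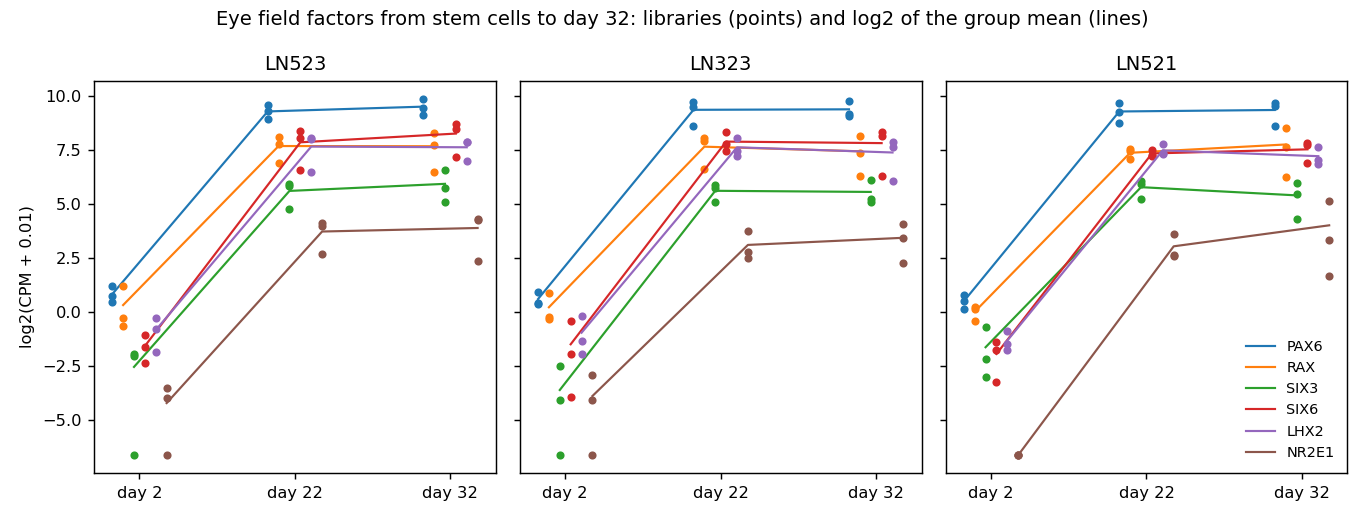
Level of each factor at days 2, 22, and 32 on each matrix, as log2(CPM + 0.01). Points are libraries, lines join the log2 of the group means, and libraries at 0 counts sit at the bottom of the axis. All 6 genes are higher in every day 22 and day 32 library than in every day 2 library, as are 6.78% of all genes tested.

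The order of the members by TPM, a level per length, was similar on each matrix at days 22 and 32. SIX6 was the highest member in 10 of the 18 libraries of days 22 and 32 and LHX2 in 6, with PAX6 and RAX each highest in 1. SIX3 was next to last in 17 libraries and NR2E1 was last in 17, the exception being LN521 replicate 1 at day 32, where SIX3 (33.5 TPM) fell below NR2E1 (40.0 TPM). In group means, SIX6 stood between 235 and 429 TPM, LHX2 between 223 and 310, RAX between 179 and 237, PAX6 between 170.0 and 192, SIX3 between 66.3 and 94.3, and NR2E1 between 8.85 and 17.9. The libraries of SIX6 and LHX2 overlapped in each of the 5 groups where they were neighbours in this order, as did those of RAX and PAX6 in the 5 groups where these were neighbours. PAX6 and SIX3 were apart in 5 of 6 groups, and SIX3 and NR2E1 in 5 of 6. CPM values, which are not divided by length, put PAX6 first in each group, with 384 to 920 CPM over the 18 libraries. Its annotated exons over all transcripts cover 20639 bases, against 2497 to 3786 for the other members. Its longest transcript has 6944 bases, against 2396 to 3255 for the others. The length by which the deposited TPM divide each gene was not examined, and the place of PAX6 in the TPM order depends on it.

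SIX6 varied most between groups of the homeodomain members at days 22 and 32, with a highest group mean 1.82 times the lowest. On LN523 it was at 393, 142, and 476 TPM in replicates 1 to 3 at day 22 and at 497, 202, and 587 TPM at day 32. On LN323 it was at 255, 314, and 439.8 TPM at day 22 and at 414, 114, and 449 TPM at day 32. The LN521 libraries lay closer together at day 22, at 229.7, 213, and 263 TPM, and were at 322, 174, and 307 TPM at day 32. Replicate 2 was the lowest library of SIX6 in 5 of the 6 groups, and the LN521 libraries overlapped the range of the others on both days.

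NR2E1 was the member with the widest spread, 11.7-fold from 3.42 to 40.0 TPM. On LN523 its libraries were at 19.4, 7.34, and 16.5 TPM at day 22 and at 20.6, 5.41, and 20.4 TPM at day 32. They were at 6.16, 14.5, and 7.01 TPM on LN323 at day 22 and at 11.7, 5.33, and 17.9 TPM at day 32. On LN521 they were at 7.02, 13.0, and 6.58 TPM at day 22 and at 40.0, 3.42, and 10.4 TPM at day 32. Both the highest and the lowest of the 18 values were thus day 32 libraries on LN521, replicates 1 and 2.

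RAX showed the same extremes. At day 22 its LN521 libraries were at 149.9, 183, and 205 TPM. At day 32 they were at 424, 82.8, and 205 TPM, which include its highest and lowest values of the 18. On LN523 it was at 305, 136, and 235 TPM at day 22 and at 224, 92.2, and 325 TPM at day 32. On LN323 it was at 109, 289, and 245 TPM at day 22 and at 179, 86.3, and 295 TPM at day 32. At day 32 replicate 2 was lowest on each matrix and its 3 libraries lay between 82.8 and 92.2 TPM, below the 6 others.

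PAX6 had the narrowest range of the members over the 18 libraries, 2.30-fold from 107 to 246 TPM. At day 32 it was at 246, 146, and 184 TPM on LN523, at 245, 161, and 144 TPM on LN323, and at 114, 201, and 214 TPM on LN521. Replicate 1 was thus the highest PAX6 library on LN523 and LN323 and the lowest on LN521. The same held at day 22, at 212, 139, and 167 TPM on LN523, 236, 107, and 187 TPM on LN323, and 121, 163, and 226 TPM on LN521.

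SIX3 had this arrangement at day 32, with 147, 53.0, and 83.4 TPM on LN523, 112, 56.2, and 59.2 TPM on LN323, and 33.5, 70.4, and 95 TPM on LN521, of which LN521 replicate 1 was the lowest SIX3 value of the 18. At day 22 it was at 93.5, 46.1, and 96.0 TPM on LN523, 86.2, 55.2, and 89.1 TPM on LN323, and 62.1, 93.7, and 107 TPM on LN521, and replicate 3 was highest on each matrix. LHX2 was at 409.9, 141, and 378 TPM on LN523, 268, 229.6, and 385 TPM on LN323, and 246, 241, and 330.3 TPM on LN521 at day 22. At day 32 it was at 344, 187, and 339 TPM on LN523, 365, 105, and 292 TPM on LN323, and 183, 202, and 286 TPM on LN521. LHX2 thus ran from 105 to 410 TPM, with LN323 replicate 2 at day 32 lowest and LN523 replicate 1 at day 22 highest, and replicate 2 was its lowest library in 5 of 6 groups.

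**Figure D2:**
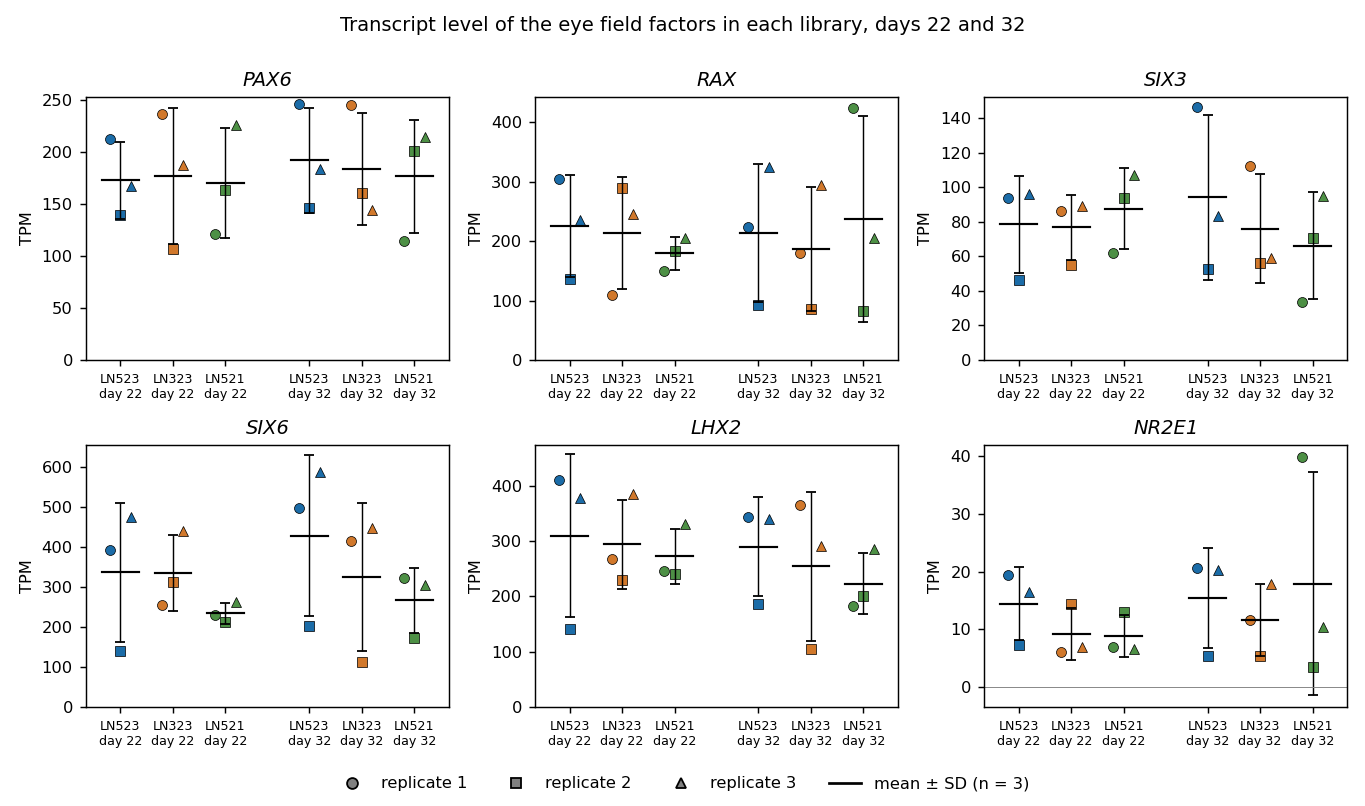
TPM of each factor in the 18 libraries of days 22 and 32, with 1 point per library, shaped by replicate and coloured by matrix, and bars for the mean ± SD (n = 3). Libraries of different matrices overlap for every gene on both days, and LN521 replicate 1 at day 32 has the highest RAX and NR2E1 and the lowest SIX3.

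Within each day, none of the 6 members was called between matrices by edgeR's quasi-likelihood test on the 9 libraries of the day, with lane as a block. At day 2, where all levels were near 0, 0 of 6 members were called in any of the 3 comparisons, and over all genes 0.233% were called for LN523 against LN323, 0.624% for LN523 against LN521, and 2.5% for LN323 against LN521. At day 22, 0 of 6 were called in any comparison, and over all genes 0.013%, 0.572%, and 0.616% were called in the same order. At day 32 the count was again 0 of 6, and over all genes 0%, 0.0609%, and 0.117%. The 3 comparisons of a day share libraries. The share of members called, 0 of 6, was near these shares of all genes. Between LN523 and LN323 at day 32, where 0 genes were called, 747 had an unadjusted p under 0.05, and DESeq2 called 823.

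The members' log2 fold changes between matrices at day 22 lay between -0.24 and 0.81. SIX6 was 0.51 ± 0.18 (SE) higher on LN323 than LN521 on the log2 scale (95% interval 0.15 to 0.88; unadjusted p = 0.00678, edgeR adjusted p = 0.384), higher in 3 of 3 lanes, and 0.40 ± 0.19 higher on LN523 than LN521 (0.02 to 0.77; unadjusted p = 0.0373, adjusted p = 0.986), higher in 2 of 3 lanes. NR2E1 was 0.76 ± 0.33 higher on LN523 than on LN323 (0.11 to 1.40; unadjusted p = 0.0227, adjusted p = 1) and 0.81 ± 0.33 higher than on LN521 (0.17 to 1.46; unadjusted p = 0.0142, adjusted p = 0.646), each in 2 of 3 lanes. Both genes were at their lowest LN523 level in replicate 2, and these values failed the correction over all genes. PAX6 differed by at most 0.04 in size between any matrices at day 22, and the widest of its 95% intervals ran from -0.34 to 0.37.

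Which members were called at day 22 turned on single libraries. Without LN523 replicate 2, NR2E1 was 1.40 higher on LN523 than on LN323 (edgeR adjusted p = 0.0089), and against LN521 RAX was 0.79 higher (adjusted p = 0.00885), SIX6 0.84 higher (adjusted p = 0.00367), and NR2E1 1.44 higher (adjusted p = 0.00317), so 1 and 3 members were called, beside 0.588% and 1.11% of all genes in the same fits. Without LN521 replicate 2, SIX6 was 0.79 higher on LN323 than on LN521 (adjusted p = 0.0195), where 0.981% of all genes were called. LN523 replicate 2 had the highest summed level of 10 surface ectoderm and keratinocyte markers at day 22, 161 TPM against 67.7 to 103 TPM in the other 8 libraries, and its part in the result was not tested.

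At day 32 all 6 members had higher point estimates on LN523 than on LN323, from 0.10 to 0.51 on the log2 scale with a median of 0.31, beside a median of -0.01 over all 39377 genes tested. With 1 library left out at a time, only SIX6 stayed above 0 in every fit (0.26 to 0.65). The lowest estimates of the others were -0.14 for PAX6, -0.0443 for RAX, -0.17 for SIX3, -0.0221 for LHX2, and -0.12 for NR2E1. Some members also ran together over the libraries, as described further on, so the 6 signs are not independent. With all libraries SIX6 had the largest estimate, 0.51 ± 0.20 (SE; 95% interval 0.10 to 0.92; unadjusted p = 0.0176, edgeR adjusted p = 1), with LN523 higher in 3 of 3 lanes. Against LN521 it was 0.59 ± 0.20 higher on LN523 (0.18 to 1.01; unadjusted p = 0.00646, adjusted p = 0.453), also in 3 of 3 lanes, and the libraries of the groups overlapped. For LHX2 the corresponding values were 0.31 ± 0.24 against either matrix, and for SIX3 0.32 ± 0.33 and 0.38 ± 0.34. When only the 6 LN523 and LN323 libraries were fitted, SIX6 (0.53, adjusted p = 2.91e-05) and LHX2 (0.36, adjusted p = 0.0269) were called, together with 1035 of all genes (2.82%). Which members were called against LN521 turned on its replicate 1. The SIX6 estimate for LN523 against LN521 stayed between 0.45 and 0.88 with any 1 library left out. Without that library, RAX was 0.44 higher on LN523 than LN521 (adjusted p = 0.0276) where all libraries gave -0.07 ± 0.24, SIX6 was 0.50 higher (adjusted p = 0.00543), and NR2E1 0.95 higher (adjusted p = 0.0093). In the same setting PAX6 was -0.45 (adjusted p = 0.00692) and SIX3 -0.56 (adjusted p = 0.00799) on LN323 relative to LN521, where all libraries gave -0.01 ± 0.24 and 0.05 ± 0.34. Leaving out that library raised the calls over all genes as well, from 0.0609% to 4.95% for LN523 against LN521 and from 0.117% to 5.57% for LN323 against LN521. Between LN523 and LN323 at day 32, the summed levels of 8 retinal ganglion and inner neuron markers were apart. They were 973, 648, and 435 TPM on LN523 and 228, 413, and 228 TPM on LN323. Of all single genes, 4.63% were apart by CPM in this comparison, in either direction, and 0 of the 8 markers were called. The part of these markers in the members' differences was not tested.

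**Figure D3:**
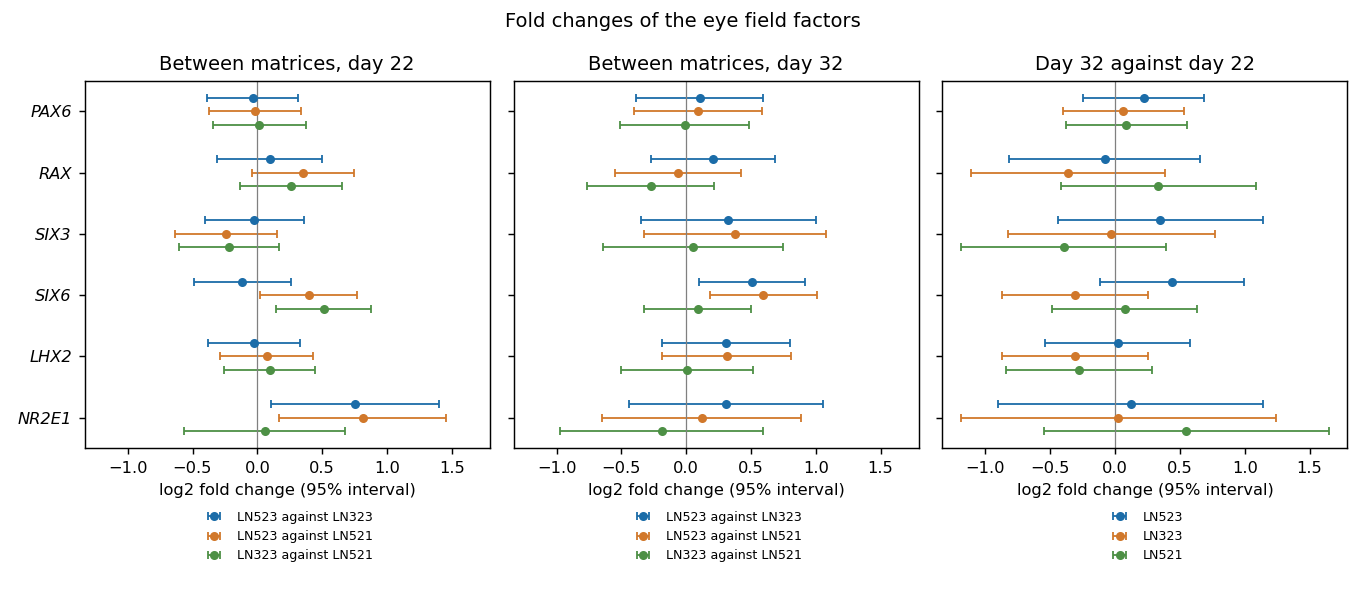
Log2 fold changes of the 6 genes with 95% intervals from edgeR, between matrices at day 22 (left) and day 32 (middle) and between days on each matrix (right). Intervals above 0 are those of NR2E1 on LN523 against either matrix and SIX6 against LN521 at day 22, and of SIX6 on LN523 against either matrix at day 32, and all others include 0.

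Over days 22 and 32 the highest of the 6 group means of a member was 1.13 (PAX6) to 2.03 (NR2E1) times its lowest. For day 32 against day 22, by edgeR over all 27 libraries, 0 of 6 were called on LN523, LN323, or LN521, and over all genes 0.381%, 0.0424%, and 0.268% were called. PAX6 moved by 0.22 ± 0.23, 0.06 ± 0.23, and 0.09 ± 0.23 on the log2 scale on the same matrices. SIX6 moved by 0.44 ± 0.28, -0.31 ± 0.28, and 0.07 ± 0.28, with higher levels at day 32 in 3 of 3, 1 of 3, and 2 of 3 lanes. The widest intervals were those of NR2E1, for example -0.55 to 1.65 on LN521, which includes a change of 3-fold. The matrix differences were also set against each other between days on the 18 libraries. Again 0 of 6 members were called for LN523 against LN323, LN523 against LN521, or LN323 against LN521, and over all genes 0%, 0.00236%, and 0% were called, with 587, 1810, and 1246 genes at an unadjusted p under 0.05 and 90, 184, and 89 called by DESeq2. SIX6 had a change of 0.69 ± 0.37 in its LN523 against LN323 difference (95% interval -0.07 to 1.46; edgeR adjusted p = 1).

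The 6 genes did not vary as 1 block over the 18 libraries of days 22 and 32. They fell into closely running pairs, described here by Pearson's r of log2(CPM + 1) over 18 libraries that share lanes and, by group, medium and matrix. RAX and NR2E1 had r = 0.88, SIX6 and LHX2 0.87, and PAX6 and SIX3 0.86, and within groups, after each group mean was taken off, the values were 0.91, 0.91, and 0.90. RAX also ran with SIX6 (0.78), and SIX3 with LHX2 (0.75). In contrast, r was -0.11 between PAX6 and RAX, -0.15 between PAX6 and NR2E1, and 0.02 between SIX3 and NR2E1. Without LN521 replicate 1 at day 32 these became 0.06, 0.09, and 0.43, and the values of the 3 closest pairs became 0.86, 0.90, and 0.82.

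**Figure D4:**
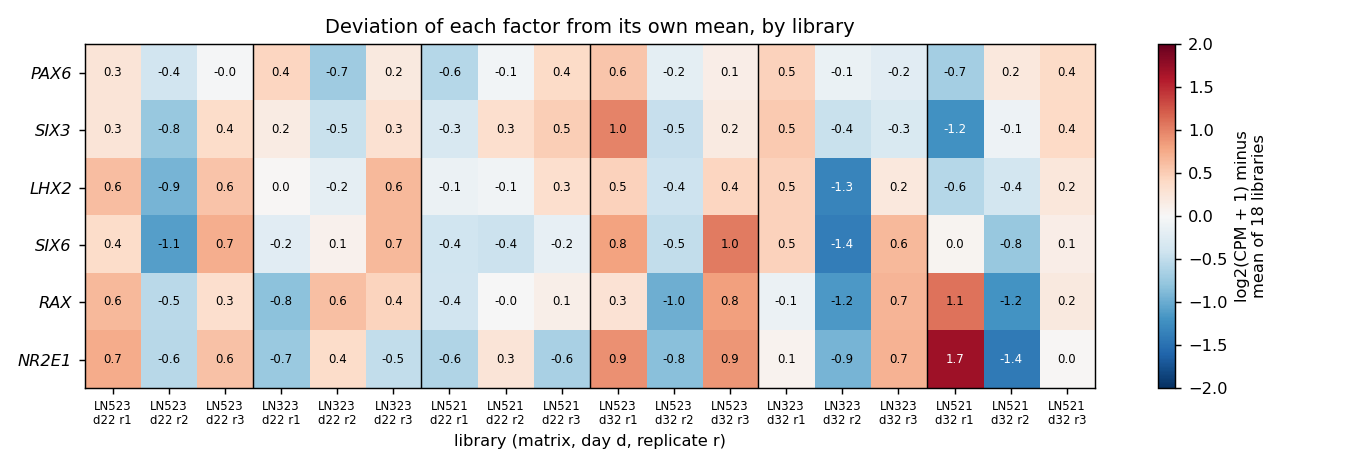
Deviation of each factor in each of the 18 libraries from its own mean of log2(CPM + 1), by matrix, day, and replicate. LN521 replicate 1 at day 32 is above the mean for RAX (1.1) and NR2E1 (1.7) and below it for PAX6 (-0.7) and SIX3 (-1.2), whereas LN323 replicate 2 at day 32 is below the mean for all 6.

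**Figure D5:**
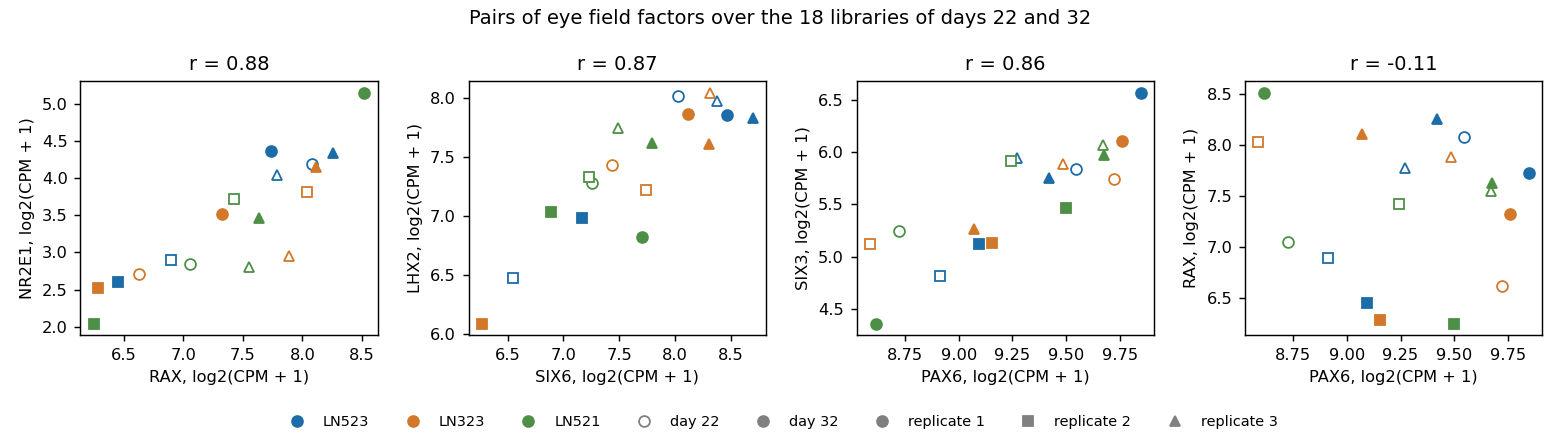
Levels of 4 pairs of factors as log2(CPM + 1), with 1 point per library of days 22 (open) and 32 (filled), coloured by matrix and shaped by replicate. RAX with NR2E1, SIX6 with LHX2, and PAX6 with SIX3 lie along a line (r of 0.88, 0.87, and 0.86), and PAX6 with RAX do not (r of -0.11).

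The mean of the 6 standardised profiles was used to find the genes with the most similar pattern among 16015 other genes with a mean of at least 1 CPM over the 18 libraries. SIX6 (r = 0.93) and LHX2 (0.92) were themselves closest to this mean, and PAX6 (0.55) and NR2E1 (0.62) were farthest from it. The 10 nearest other genes had r between 0.88 and 0.93. Among them were CERK, a ceramide kinase, HOMER2, a scaffold protein, SOX2, a neural progenitor and pluripotency factor, MAFA, a factor of the large Maf family, RAB31, a small GTPase, and LCTL, C2CD2, NLRP1, and ZNF608. SOX2 was already high in the stem cells, with a mean of 477 CPM at day 2 and 41.7 to 188 CPM later, and its likeness is within the later libraries. With Spearman's rho in place of r, 6 of the 10 stayed in the first 10, and with TPM in place of CPM 9 did.

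Genes that work with the eye field factors were followed in a list of 19. From day 2 to day 22, 10 rose and 4 fell on LN523, 10 rose and 5 fell on LN323, and 10 rose and 4 fell on LN521, with list medians of 1.74, 1.76, and 1.30 on the log2 scale beside 0.02, 0.02, and -0.02 over all genes. Of all 44852 genes tested, 11.5%, 11.8%, and 10.8% were called higher, and 4571, 4907, and 3627 genes were called lower. The genes with the largest rises were the same on each matrix, MEIS1 and MEIS2, TALE homeodomain cofactors, TBX3, an early eye field T-box factor, and DACH1, a partner of EYA proteins. MEIS1 rose by 8.48 ± 0.26 on LN523 and MEIS2 by 9.73 ± 0.41 on LN323. OTX2, SOX2, SFRP1, and HESX1, all of which are active in stem cells or the anterior neural plate, fell on each matrix. Of the list, 0 genes were called between days 32 and 22 on any matrix.

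Between matrices, OTX2, a homeodomain factor of the anterior brain and later of pigment epithelium and photoreceptor precursors, was the list member called most often. At day 22 it was at 54.8, 8.29, and 20.3 TPM on LN523 and at 31.3, 10.9, and 21.4 TPM on LN323, and its 3 LN521 libraries lay between 40.2 and 69.9 TPM. Its log2 fold change on LN323 relative to LN521 was -1.38 ± 0.23 at day 22 and -1.18 ± 0.22 at day 32, and on LN523 relative to LN521 it was -1.24 ± 0.23 at day 22, with edgeR adjusted p-values of 3.96e-05, 0.0235, and 0.000708. SFRP1, a secreted Wnt antagonist, was 0.76 ± 0.18 higher on LN523 than LN521 at day 22, and TBX3 was 0.98 ± 0.24 higher on LN323 than on LN521. The other counts of this list between matrices at days 22 and 32 were 0.

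The domains into which the optic vesicle is divided were followed in a list of 16 genes. From day 2 to day 22, 14 rose on LN523, 14 on LN323, and 15 on LN521, and 0 fell, with medians of 7.17, 8.15, and 7.55 on the log2 scale. Over all genes the medians were 0.02, 0.02, and -0.02, and 11.5%, 11.8%, and 10.8% were called higher. MITF, which marks the pigment epithelium, had group means of 32.1 to 36.9 TPM at days 22 and 32. Its r was 0.74 for PAX6 and 0.75 for SIX3 but -0.15 for RAX and -0.33 for NR2E1 (18 libraries). FZD5, a Wnt receptor of the eye field, and PAX2, of the optic stalk, had r of 0.89 and 0.85 with SIX6. Between matrices at day 22, the ventral gene VAX1 was called higher on LN523 than LN323 and lower on LN323 than LN521, from group means of at most 1.57 TPM. NR2F1, an orphan nuclear receptor, was lower on LN523 than LN521 (-0.92 ± 0.18). TBX5 and ALDH1A1, of the dorsal retina, were higher on both than on LN521, and at day 32 the difference of TBX5 between LN323 and LN521 was 2.43 ± 0.47. From day 22 to day 32, VSX1, a homeodomain factor, was called higher on LN523 (4.03 ± 0.85).

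Markers of other cells moved with the levels of some members, and their part in the results was not tested. At day 32 the 10 surface ectoderm and keratinocyte markers summed to 715, 817, and 782 TPM in replicate 2 on LN523, LN323, and LN521 and to 667 TPM in LN521 replicate 1, against 112 to 342 TPM in the other 5 libraries. Replicate 2 was also the library with the lowest RAX on each matrix at day 32, whereas LN521 replicate 1 had the highest RAX of the 18 libraries (424 TPM). The 9 lens markers summed to 1193 TPM in LN323 replicate 2, the library with the lowest SIX6 and LHX2 of the 18, against 14.6 to 355 TPM in the other day 32 libraries. The 8 pigment epithelium markers summed to 559 TPM in LN521 replicate 1 at day 32, the lowest of that day, where PAX6 and SIX3 were lowest, and to 680 to 2089 TPM in the others. In that library the telencephalon markers (57.3 TPM, 8 genes), the photoreceptor markers (160 TPM), and the ganglion and inner neuron markers (979 TPM) each had their highest sum of the day. The photoreceptor sums of LN523 replicates 1 and 2 (146 and 141 TPM) and the ganglion sum of LN523 replicate 1 (973 TPM) were close to these. Over the 18 libraries r with the pigment epithelium sum was 0.56 for PAX6, 0.51 for SIX3, -0.40 for RAX, and -0.53 for NR2E1, and r with the surface ectoderm sum was -0.63 for LHX2 and -0.50 for SIX3. The other sums at days 22 and 32 stayed within 16.1 to 74.6 TPM for 5 of 6 neural crest and glia markers and 0.42 to 16.2 TPM for 6 mesoderm and endoderm markers. The ganglion and inner neuron markers summed to 25.8 to 378 TPM at day 22, and on LN521 to 979, 156, and 235 TPM at day 32.

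The closest relatives of the members were low beside them. The list of 6 relatives summed to 1.67 to 15.1 TPM at day 22 and 4.22 to 14.9 TPM at day 32. PAX4 was at 0 counts in every library of days 22 and 32, and RAX2 stayed at or below 0.783 TPM. LHX9, a LIM homeodomain relative of LHX2, was called higher at day 22 than at day 2 on each matrix and reached group means of 3.52 to 5.84 TPM at days 22 and 32. NR2E3, a photoreceptor relative of NR2E1, was called lower at day 22 on LN523. The relatives were called in 0 of the matrix comparisons.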

How the data were processed

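The authors aligned reads trimmed with cutadapt to GRCh38 (hg38, Ensembl 79) with STAR 2.5.2b and counted genes with featureCounts 1.5.1, then removed ribosomal and mitochondrial genes and rounded. The deposited counts are not normalized, and the TPM values, also deposited, are scaled by gene length. From these, levels (TPM, and CPM after TMM normalization) and log2 fold changes were computed. Depth was 25620624 to 47340990 counts per library, and 43052 genes were named by GENCODE 44.

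Groups followed the labels. Tests used edgeR 4.0.16 in R 4.3.3 (quasi-likelihood test, legacy mode) on genes whose counts sum to above 1, with group and lane as terms, and Benjamini-Hochberg adjusted p-values under 0.05 called. Matrix comparisons used the 9 libraries of a day, day comparisons all 27, and changes of a matrix difference the 18 of days 22 and 32. Lane, a replicate block given by the titles and part of the model of the study, was examined by the correlation of deviations from group means between libraries of a lane: mean r was 0.62 and 0.71 between LN523 and LN323 at days 22 and 32, and between -0.40 and 0.19 for the other pairs. The tests were also run on simulated counts, drawn without lane effects and with a spread set by the fitted trend. Such counts cannot show how well the calls hold in these libraries, and their outcome is not used here. Replicate libraries differed beyond counting error.

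The members and lists were chosen with earlier results of these data known. Named genes were the 6 members, the 10 with the highest r to their mean profile, and from the lists at most 4 a comparison, by size of change among those called with at least 1 CPM; the correlations with single list genes and the marker libraries named were chosen after values were seen. Alternatives were no replicate block, DESeq2 1.42.0, RLE, filterByExpr, only the groups compared, limma 3.58.1 on log2(TPM + 1) or log2(TPM + 0.1), and each library left out. Default edgeR without legacy mode was added after the data were seen. A sample sheet was not used, and 1 gene each of the photoreceptor and neural crest lists was not analysed here. Some list genes, and 1 of the 10 nearest genes, are counted but not reported by name here.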

Additional observations from a re-analysis of the deposited data

How the results depend on the processing

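With 1 library left out at a time, the number of members called ranged from 0 to 1 for LN523 against LN323 at day 22, from 0 to 3 for LN523 against LN521 at day 22, from 0 to 1 for LN323 against LN521 at day 22, from 0 to 3 for LN523 against LN521 at day 32, and from 0 to 2 for LN323 against LN521 at day 32, by the libraries named above. With only the groups compared in the fit, 2 members were called between LN523 and LN323 at day 32. In the other settings of these comparisons, and in every setting for day 2, the day comparisons, and the changes of a matrix difference, the number called stayed at 0 or, for day 22 against day 2, at 6. Without the replicate block 0 members were called between matrices, and the block changed no call of a member. Default edgeR without legacy mode, added after the data were seen, called the same numbers of members. Counts over all genes depended far more on the method, from 486 to 897 genes in the 9 matrix comparisons with DESeq2, 0 to 967 with edgeR as reported, 0 to 1476 without the replicate block, 0 to 1005 with RLE, 0 to 1035 with only the groups compared, 0 to 99 without legacy mode, and 0 with filterByExpr or limma. SIX3 and NR2E1 did not pass filterByExpr at day 2 and gave no value there. The cause of these shifts was not tested.

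Some estimates near 0 changed sign with the method, with no call in the settings named next. With limma on log2(TPM + 1), the log2 fold change was 0.0188 in PAX6 for LN523 against LN323 at day 22, 0.0478 in PAX6 for LN523 against LN521 at day 22, 0.0705 in PAX6 for LN323 against LN521 at day 32, -0.0024 in LHX2 for day 32 against day 22 on LN523, -0.00449 in NR2E1 for day 32 against day 22 on LN523. With a pseudocount of 0.1, the log2 fold change was 0.0192 in PAX6 for LN523 against LN323 at day 22, 0.0482 in PAX6 for LN523 against LN521 at day 22, 0.071 in PAX6 for LN323 against LN521 at day 32, -0.001993 in LHX2 for day 32 against day 22 on LN523, -0.0165 in NR2E1 for day 32 against day 22 on LN523. Without the replicate block, the log2 fold change was 0.0358 in LHX2 for LN523 against LN323 at day 22, 0.00331 in PAX6 for LN523 against LN521 at day 22, -0.15 in NR2E1 for LN523 against LN521 at day 32, 0.0196 in PAX6 for LN323 against LN521 at day 32, -0.0328 in LHX2 for day 32 against day 22 on LN523. With only the groups compared, the log2 fold change was 0.0172 in PAX6 for LN523 against LN521 at day 22, 0.0525 in PAX6 for LN323 against LN521 at day 32. By DESeq2, the log2 fold change was -0.00237 in LHX2 for day 32 against day 22 on LN523, -0.0262 in NR2E1 for day 32 against day 22 on LN323. Leaving out single libraries moved the sign as well, and without LN521 replicate 1 at day 32 the reversed values of RAX for LN523 against LN521 and of SIX3 for LN323 against LN521 were called (edgeR adjusted p = 0.0276 and 0.00799). For LN523 against LN323 at day 22, the range was -0.28 to 0.25 for PAX6, -0.47 to 0.58 for RAX, -0.29 to 0.24 for SIX3, -0.43 to 0.33 for SIX6, -0.40 to 0.33 for LHX2. For LN523 against LN521 at day 22, the range was -0.40 to 0.27 for PAX6, -0.29 to 0.79 for RAX, -0.60 to 0.17 for SIX3, -0.30 to 0.44 for LHX2. For LN323 against LN521 at day 22, the range was -0.38 to 0.28 for PAX6, -0.20 to 0.66 for RAX, -0.56 to 0.21 for SIX3, -0.0814 to 0.41 for LHX2, -0.41 to 0.47 for NR2E1. For LN523 against LN323 at day 32, the range was -0.14 to 0.40 for PAX6, -0.0443 to 0.43 for RAX, -0.17 to 0.68 for SIX3, -0.0221 to 0.69 for LHX2, -0.12 to 0.60 for NR2E1. For LN523 against LN521 at day 32, the range was -0.35 to 0.40 for PAX6, -0.36 to 0.44 for RAX, -0.26 to 0.85 for SIX3, -0.0308 to 0.70 for LHX2, -0.25 to 0.95 for NR2E1. For LN323 against LN521 at day 32, the range was -0.45 to 0.28 for PAX6, -0.58 to 0.22 for RAX, -0.56 to 0.50 for SIX3, -0.0616 to 0.37 for SIX6, -0.37 to 0.39 for LHX2, -0.58 to 0.56 for NR2E1. For day 32 against day 22 on LN523, the range was -0.0141 to 0.38 for PAX6, -0.31 to 0.29 for RAX, -0.28 to 0.66 for SIX3, -0.25 to 0.28 for LHX2, -0.13 to 0.46 for NR2E1. For day 32 against day 22 on LN323, the range was -0.16 to 0.31 for PAX6, -0.76 to 0.21 for RAX, -0.49 to 0.20 for SIX3, -0.66 to 0.11 for SIX6, -0.65 to 0.00434 for LHX2, -0.44 to 1.09 for NR2E1. For day 32 against day 22 on LN521, the range was -0.21 to 0.39 for PAX6, -0.48 to 0.75 for RAX, -0.14 to 0.52 for SIX6, -0.57 to 1.46 for NR2E1.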

Other observations

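Genes of the dorsal and ventral optic cup spread widely between the LN521 libraries on both later days, and they were named after their values were seen. VAX2, a homeodomain factor of the ventral optic cup, was at 50.8, 20.3, and 0.786 TPM in replicates 1 to 3 on LN521 at day 22 and at 89.3, 7.15, and 1.51 TPM at day 32, against at most 13.8 TPM in the 12 libraries on LN523 and LN323. TBX5, a T-box factor of the dorsal optic cup, was at 3.67, 13.0, and 104 TPM and at 3.61, 7.18, and 48.9 TPM in the same LN521 libraries. ALDH1A1, a retinaldehyde dehydrogenase of the dorsal retina, was at 403, 1564, and 6007 TPM and at 316, 1507, and 7592 TPM. LN521 replicates 1 and 3 thus stood at opposite ends for these 3 genes on both days, while RAX was at 149.9 and 205 TPM in them at day 22 and at 424 and 205 TPM at day 32. TBX5 (1.25 ± 0.31 on the log2 scale) and ALDH1A1 (1.01 ± 0.25) were called higher on LN523 than LN521 at day 22 by edgeR, and VAX2 was called lower on LN323 than on LN521 (-2.99 ± 0.62), over LN521 libraries that spread this widely.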
